A study of Mus musculus with 9 samples.

Results

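The collagen genes of the mouse were followed through an ac4C RNA immunoprecipitation (acRIP-seq) experiment on testis. Collagens are extracellular proteins in which 3 chains wind into a triple helix, and the helix needs a glycine at the start of each repeat Gly-X-Y, where X and Y are often proline and hydroxyproline. In the testis, collagens lie in the basement membrane under the seminiferous epithelium and in the matrix that peritubular myoid cells, fibroblasts and other interstitial cells lay down, while most of the RNA of the organ comes from germ cells. The genes were chosen by annotation alone, as protein-coding genes whose symbol has the form Col, a type number, a and a chain number. This gave 44 genes among the 55401 genes of the count table. Of the 44, 43 had at least 1 count in some library, and 37 had enough counts to be tested, among 22510 tested genes. The 7 that were not tested were Col4a6, which had 0 counts in all 9 libraries, and Col5a3, Col6a6, Col8a2, Col9a2, Col10a1 and Col13a1.

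Poly(A) RNA of wild-type mouse testis was sequenced as 3 input libraries, 3 libraries of RNA recovered with control IgG and 3 acRIP libraries of RNA recovered with an antibody against N4-acetylcytidine (ac4C), an acetylated form of cytidine in RNA. The mice are of the ICR strain by the study's methods, which also add an ac4C-containing β-globin probe to the RNA before recovery, and neither they nor the labels give the animals' age for these libraries. The sources do not state whether the replicates came from separate animals, so the p-values measure only the spread between these libraries, which may be technical. Counts on genes ranged from 22023925 to 31340090 in input, from 14647542 to 18786779 in IgG and from 16025779 to 18639134 in acRIP, and the number of genes with any count was 28552 to 29642 in input, 26204 to 26874 in IgG and 22206 to 22402 in acRIP. Levels are given as FPKM, computed from the counts, the gene length of the table and the total count of the library. The germ cell gene Prm1, a sperm protamine, stood at a mean of 8938 FPKM in input.

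The sequences bear out the choice of genes. For each of the 44 genes the transcript with the longest complete coding sequence was taken (GENCODE vM21, on GRCm38, the mm10 build of the files). Its longest unbroken run of Gly-X-Y triplets was between 23 (Col26a1) and 344 (Col3a1) triplets, with a median of 58.5. The median was 2 over all 21866 protein-coding genes with a coding transcript, where an incomplete one was used only if no complete one existed. A run of at least 20 triplets was found in 64 of those genes, 44 of them the collagens. Glycine took between 9.17% and 31.2% of the codons of a collagen (median 24.2%), against a median of 6.03% over all genes. The repeat is also visible in the gene structure, since 469 of the 2002 coding exons of the 44 transcripts were exactly 54 bases long, which is 6 triplets, and 1238 had a length that is a multiple of 9 bases. The first such exon that holds a glycine codon at the start of each triplet is shown for the pair of genes that were higher in acRIP than in both control groups, for a pair of type I and a pair of type IV chains that parted from each other, and for the most abundant collagen. They are written 5′ to 3′ on the gene's own strand, with glycine codons in capitals.
Col27a1, exon 4, chr4:63231792-63231845, plus strand: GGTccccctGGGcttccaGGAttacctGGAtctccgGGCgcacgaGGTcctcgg
Col19a1, exon 12, chr1:24461476-24461529, minus strand: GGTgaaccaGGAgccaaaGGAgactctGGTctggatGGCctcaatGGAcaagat
Col1a1, exon 8, chr11:94939904-94939957, plus strand: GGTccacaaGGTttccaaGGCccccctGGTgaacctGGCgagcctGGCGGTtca
Col1a2, exon 8, chr6:4515481-4515534, plus strand: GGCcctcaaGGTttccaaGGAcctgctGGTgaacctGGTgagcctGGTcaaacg
Col4a2, exon 17, chr8:11413979-11414032, plus strand: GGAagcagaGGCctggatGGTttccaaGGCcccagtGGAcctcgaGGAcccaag
Col4a1, exon 7, chr8:11245211-11245264, minus strand: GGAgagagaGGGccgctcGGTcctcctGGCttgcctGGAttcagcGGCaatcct
Col22a1, exon 13, chr15:71952523-71952576, minus strand: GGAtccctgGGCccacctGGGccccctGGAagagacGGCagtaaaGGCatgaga
Cytosine, the base that carries ac4C, made up 19 of the 54 bases in the Col27a1 exon and 11 in the Col19a1 exon. The Col1a1 exon held 18 cytosines and the Col1a2 exon 15.

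The most abundant collagen RNAs were those of a pair of fibril-associated chains. Col22a1 and Col20a1 stood far above the rest, and together they made up 49.7% of the summed FPKM of all 44 genes in input, 57.6% in IgG and 68.3% in acRIP. Col22a1 (ENSMUSG00000079022.10, chr15:71795795-72034227), which codes for a chain known from tissue junctions such as those between muscle and tendon, had 22.4, 21.2 and 21.5 FPKM in the input libraries, 24.9, 23.7 and 22.6 in IgG and 31.7, 32.1 and 30.03 in acRIP. Every acRIP library lay above every control library, at a log2 fold change of 0.45 ± 0.05 (SE) over IgG (edgeR, adjusted p = 9.6e-10), which is a 1.37-fold difference and below the 2-fold limit used for a call. Col20a1 (ENSMUSG00000016356.18, chr2:180986535-181018363) had 18.3, 17.3 and 17.0 FPKM in input, 24.9, 23.7 and 23.6 in IgG and 28.7, 29.0 and 28.5 in acRIP, and its log2 fold change over IgG was 0.30 ± 0.05 (adjusted p = 7.0e-06). It was already higher in IgG than in input, by 0.48 ± 0.05 (adjusted p = 1.5e-09). An annotated transcript of the same strand, BX649560.1, shares 79 exonic bases with Col20a1, and an antisense one shares 16 with Col22a1, and as the use of strand in counting is not stated, reads on the shared bases may have been counted for either gene or for neither.

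Below this pair the levels fell off quickly. Col16a1 followed at 6.03 ± 0.187 FPKM in input (SD, n = 3), Col15a1 at 5.205 ± 0.141, Col6a4 at 3.68 ± 0.527 and Col9a3 at 2.62 ± 0.164, so that Col16a1 lay above Col15a1 in every input library, and the other neighbours in this order were also farther apart than their SDs. In all, 16 of the 44 genes had a mean of at least 1 FPKM in input. The major fibrillar collagens of connective tissue were low, with Col3a1 at 1.56 ± 0.129, Col1a2 at 0.682 ± 0.0882 and Col1a1 at 0.609 ± 0.115 FPKM. The last pair did not differ beyond its spread in FPKM, which depends on the gene length used. That length was 12426 merged exon bases for Col1a2 and 6563 for Col1a1. In counts Col1a2 had 250, 170 and 216 in the input libraries and Col1a1 114, 77 and 108. In a whole organ, few cells of a type and little RNA per cell cannot be told apart.

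**Figure D1:**
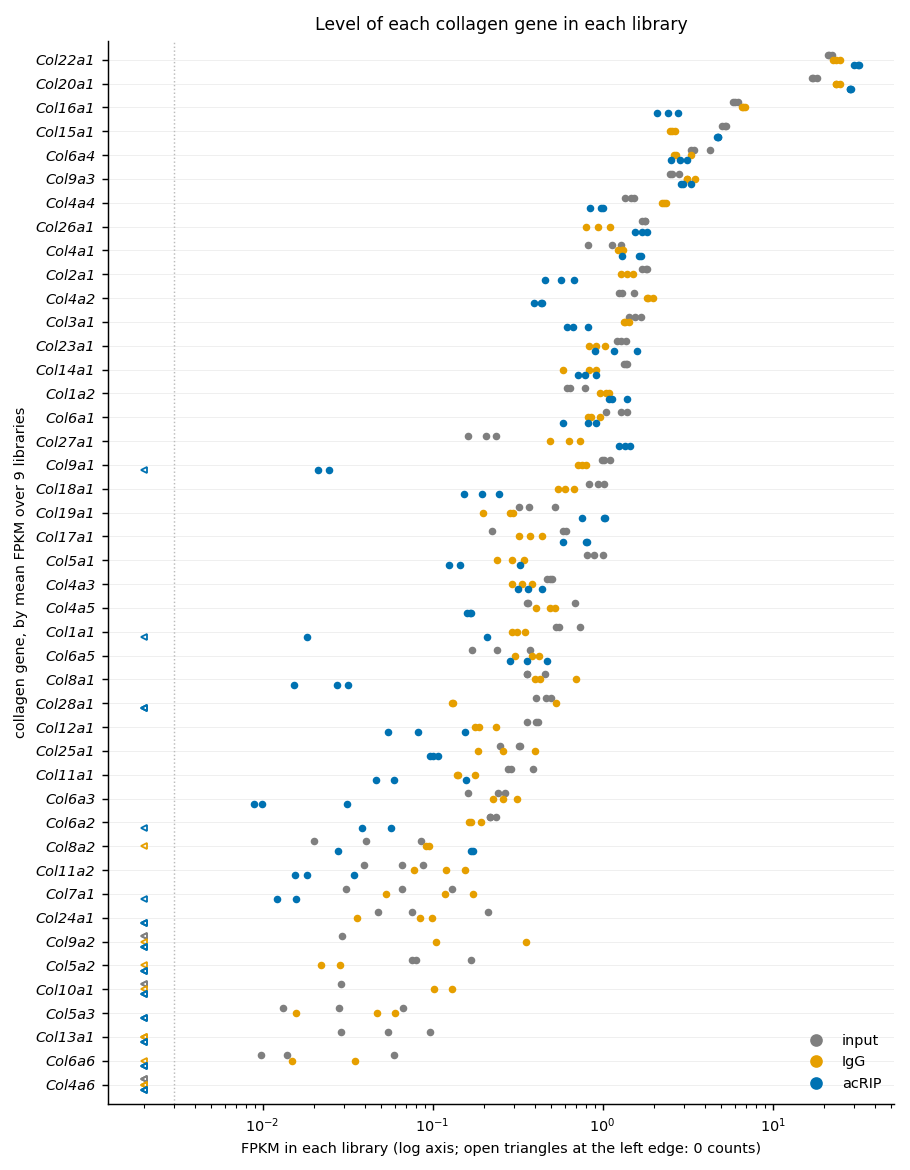
Level of each of the 44 collagen genes in each library, as FPKM on a log axis, with 3 points each for input (grey), IgG (orange) and acRIP (blue). Open triangles at the left edge are libraries with 0 counts. Col22a1 and Col20a1 stand apart at the top, and in the lower part of the plot many acRIP points lie left of both control groups, with 9 genes at 0 counts in all acRIP libraries.

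Between acRIP and IgG, which compares the antibody with what the beads and a control antibody carry over, most of the collagens that were called were lower in acRIP. A gene was called where the edgeR adjusted p was under 0.05 and the fold change over 2. Among the 37 collagens with a test, 3 were higher (Col19a1, Col27a1 and Col17a1) and 17 were lower, while 17 were not called. This is 8.11% higher and 45.9% lower, where 11.5% of all tested genes were higher and 20.9% lower, and 9.01% and 19.7% of the tested protein-coding genes. The median log2 fold change of the 37 was −0.91, against −0.09 over all tested genes. The median was also taken without the fitted values of the 3 genes that had 0 counts in every acRIP library. Col24a1 and Col28a1 were set at their bounds, and Col5a2, whose IgG level is under the bound, was set at 0. The median then became −0.77 (bound from 3 counts a library) or −0.61 (6 counts). A gene could enter the test through any group, and 10 of the 17 lower genes had fewer than 3 acRIP libraries above the filter on low counts, so that they entered the test through the control libraries, while the other 7 were above it in all 3.

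Against input, which holds the RNA before recovery, 2 genes were higher in acRIP (Col27a1 and Col19a1) and 19 lower, or 5.41% and 51.4%, beside 17.7% and 22.9% of all tested genes and 16.0% and 21.7% of the protein-coding ones. The median log2 fold change was −1.24, against −0.10 over all tested genes, and −1.24 or −1.20 with the same 3 genes at their bounds. With calls in the same direction required against both IgG and input, Col27a1 and Col19a1 were higher and 15 collagens were lower in acRIP, where 7.88% and 17.0% of all tested genes and 5.88% and 16.1% of the protein-coding genes were. These comparisons share the acRIP libraries and are not independent of each other. Between IgG and input, without the ac4C antibody, Col27a1 was higher and 3 genes (Col5a1, Col5a2 and Col11a1) were lower, 2.703% and 8.11% of 37, beside 13.5% and 7.22% of all tested genes.

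**Figure D2:**
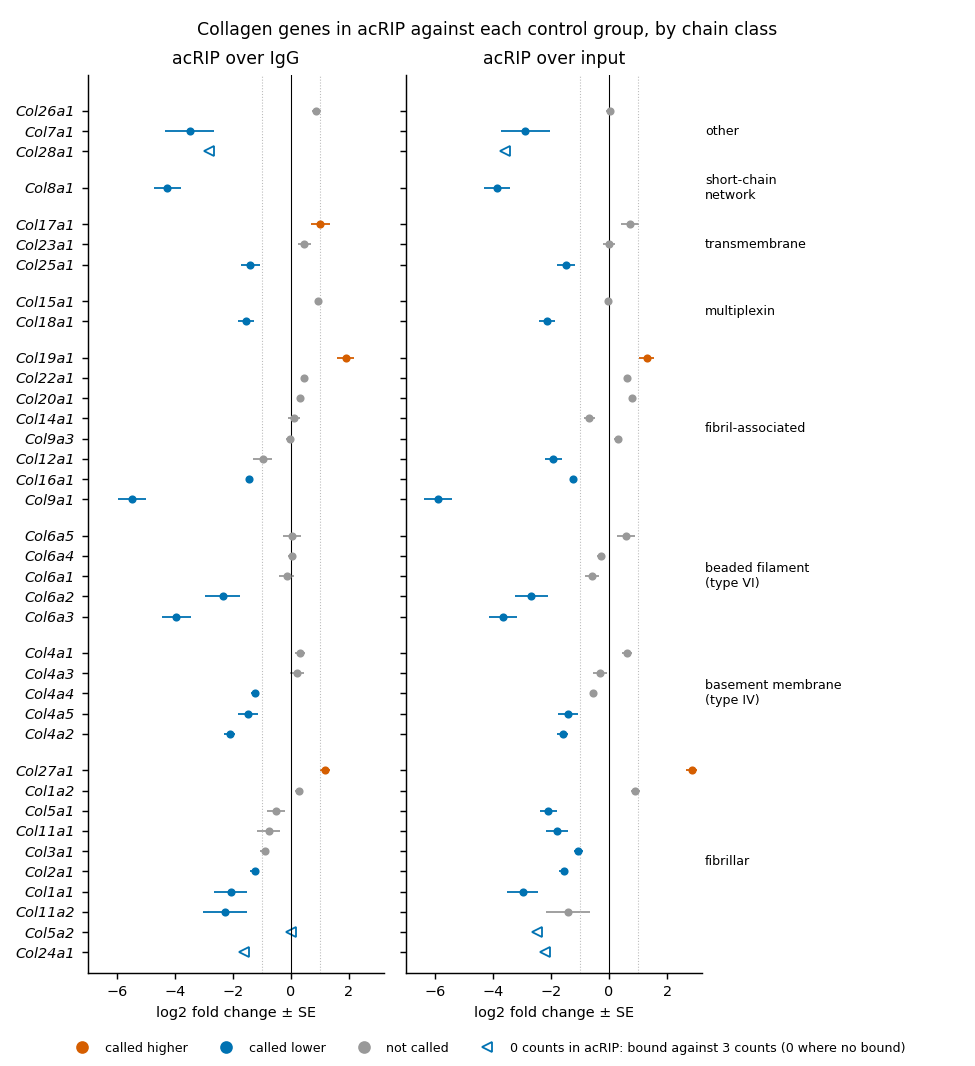
Log2 fold change with its SE (edgeR) of the 37 tested collagen genes in acRIP over IgG (left) and over input (right), grouped by chain class. Orange points were called higher, blue lower and grey ones neither, and dotted lines mark a 2-fold change. Open triangles are bounds for the 3 genes with 0 counts in acRIP, except that Col5a2, which has no bound over IgG, is drawn at 0 in the left panel. Col27a1 and Col19a1 are the only orange points in both panels, and each class with at least 2 tested genes holds both blue and grey or orange points in the left panel.

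The 2 collagens higher than both controls belong to different classes and differed in how they reached that level. Col27a1 (ENSMUSG00000045672.15, chr4:63214004-63334991) codes for a fibrillar chain known from cartilage. It had 0.162, 0.237 and 0.208 FPKM in input, 0.493, 0.638 and 0.735 in IgG and 1.26, 1.46 and 1.35 in acRIP. The 3 groups did not overlap, and IgG was itself 3.19-fold above input (log2 1.67 ± 0.20, adjusted p = 9.5e-09), so that the 7.16-fold difference between acRIP and input (2.84 ± 0.19, adjusted p = 1.4e-14) was larger than the 2.24-fold difference between acRIP and IgG (1.17 ± 0.17, adjusted p = 1.0e-06). Col19a1 (ENSMUSG00000026141.13, chr1:24261890-24587472), a fibril-associated chain found at basement membranes and in muscle, had 0.371, 0.323 and 0.523 FPKM in input, 0.198, 0.286 and 0.297 in IgG and 1.01, 1.03 and 0.762 in acRIP. Here IgG did not differ from input by the test (−0.59 ± 0.29, adjusted p = 0.087), and acRIP stood 3.68-fold above IgG (1.88 ± 0.28, adjusted p = 1.1e-06) and 2.44-fold above input (1.29 ± 0.26, adjusted p = 6.7e-05). Both were low, with 0.162 to 0.523 FPKM in the input libraries.

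The fibrillar collagens form the banded fibrils of tendon, bone, cartilage and skin. Of 10 tested genes, 5 were lower in acRIP than in IgG and 1, Col27a1, was higher, at a class median of −1.08. Among all tested genes, 20.9% were lower than IgG and 11.5% higher. Col2a1, the main collagen of cartilage, had 1.80, 1.70 and 1.81 FPKM in input, 1.39, 1.51 and 1.28 in IgG and 0.675, 0.459 and 0.568 in acRIP, with no overlap between acRIP and either control. It differed from IgG by −1.25 ± 0.16 (adjusted p = 1.1e-07) and from input by −1.57 ± 0.16 (adjusted p = 3.0e-10). Col1a1, a chain of type I collagen, had 114, 77 and 108 counts in input, 30, 43 and 36 in IgG and 22, 0 and 2 in acRIP. The acRIP libraries lay below all others but 1 library held nearly all of their counts, and the log2 fold change over IgG of −2.07 ± 0.56 (adjusted p = 0.0019) became −5.01 without acRIP replicate 1 and −1.45 without acRIP replicate 2. DESeq2 gave a like value of −2.01 for Col1a1 but no call, at an adjusted p of 0.106.

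Of the fibrillar chains, 3 more were called on few counts. Col24a1 had 18, 8 and 36 counts in input, 4, 12 and 14 in IgG and 0 in every acRIP library, which makes acRIP at least 3.06-fold lower than IgG by the bound of 3 counts a library and at least 1.53-fold lower by 6. Col11a2 had 19, 10 and 6 counts in input, 12, 20 and 10 in IgG and 2, 2 and 4 in acRIP (−2.28 ± 0.75 over IgG, adjusted p = 0.0093), and its call was lost without acRIP replicate 2 (adjusted p = 0.053). Col5a2, a chain of type V collagen, had 24, 16 and 36 counts in input, 4, 4 and 0 in IgG and 0 in acRIP. The IgG level is under the 3-count bound, so no fold over IgG is given, and its call against IgG was lost when any acRIP library, IgG replicate 1 or IgG replicate 2 was left out. Against input Col5a2 was at least 5.59-fold lower by 3 counts and 2.79-fold by 6. Against input 7 of the 10 fibrillar genes (70.0%) were lower, beside 22.9% of all tested genes, at a class median of −1.68. Col3a1, Col5a1 and Col11a1 were called lower than input but not than IgG, and Col5a1 and Col11a1 were also lower in IgG than in input, at −1.58 ± 0.27 and −1.02 ± 0.35.

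Type IV collagen builds the network of basement membranes, as trimers of the chains from Col4a1 and Col4a2 or of those from Col4a3, Col4a4 and Col4a5. Of 5 tested type IV genes, 3 were lower in acRIP than in IgG and none was higher, at a class median of −1.23. Among all tested genes, 20.9% were lower than IgG and 11.5% higher. Against input 2 of the 5 were lower and none was higher, beside 22.9% and 17.7% of all tested genes. Col4a2 (chr8:11312805-11449287) had 1.24, 1.53 and 1.30 FPKM in input, 1.86, 1.83 and 1.98 in IgG and 0.396, 0.438 and 0.432 in acRIP, and all acRIP libraries lay well below the others (−2.11 ± 0.19 over IgG, adjusted p = 7.6e-11). Its partner Col4a1, which lies head to head with it and shares 22 exonic bases, had 0.821, 1.28 and 1.13 FPKM in input, 1.23, 1.30 and 1.33 in IgG and 1.69, 1.29 and 1.65 in acRIP, and was not called (0.31 ± 0.17, adjusted p = 0.12). Col4a4 had 1.53, 1.47 and 1.36 FPKM in input, 2.28, 2.36 and 2.24 in IgG and 0.841, 0.981 and 1.01 in acRIP. It was lower than IgG by −1.23 ± 0.13 (adjusted p = 1.2e-09), while the difference from input, −0.54 ± 0.13, was below the fold limit, and IgG lay above input by 0.69 ± 0.12. Col4a5 had 0.361, 0.365 and 0.684 FPKM in input, 0.406, 0.491 and 0.528 in IgG and 0.167, 0.160 and 0.169 in acRIP (−1.48 ± 0.35 over IgG, adjusted p = 0.00049), and Col4a3, whose start lies 71 bases from that of Col4a4 and which shares 563 exonic bases with a transcript of the opposite strand, was not called at 0.21 ± 0.25.

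Type VI collagen makes beaded filaments around cells and assembles from the chains of Col6a1, Col6a2 and a further chain such as that of Col6a3. Of 5 tested type VI genes 2 (40.0%) were lower in acRIP than in IgG and none was higher, at a class median of −0.15. Of all tested genes 20.9% were lower and 11.5% higher. Col6a3 had 91, 70 and 43 counts in input, 40, 58 and 70 in IgG and 6, 2 and 2 in acRIP (−3.94 ± 0.49 over IgG, adjusted p = 3.3e-08), and Col6a2 had 62, 40 and 40 in input, 20, 30 and 26 in IgG and 0, 6 and 8 in acRIP (−2.35 ± 0.59, adjusted p = 0.00088). In both genes all acRIP libraries lay below all controls, and the change of Col6a3 became −4.70 without acRIP replicate 1 and that of Col6a2 −2.99 without acRIP replicate 3. Col6a1 was not called, at −0.15 ± 0.25 and a mean of 0.772 FPKM in acRIP against 0.884 in IgG. Col6a4, the most abundant of the type, had 3.297, 3.46 and 4.28 FPKM in input, 2.698, 3.29 and 2.64 in IgG and 3.15, 2.54 and 2.85 in acRIP, so that IgG and acRIP overlapped (0.03 ± 0.12).

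The fibril-associated collagens sit on the surface of fibrils or at membranes. Of 8 tested genes, 2 (25.0%) were lower in acRIP than in IgG, 1 (Col19a1, 12.5%) was higher and the class median was 0.04. These shares are near the 20.9% lower and 11.5% higher of all tested genes. Col9a1 (ENSMUSG00000026147.16, chr1:24177610-24252684), a chain of cartilage collagen IX, showed the largest fall among the members with any acRIP count. It had 158, 114 and 124 counts in input, 56, 76 and 68 in IgG and 2, 2 and 0 in acRIP, which is a log2 difference of −5.47 ± 0.48 from IgG (adjusted p = 5.0e-11) and of −5.89 ± 0.47 from input (adjusted p = 8.9e-13). The next gene on the chromosome, 9205 bases away on the other strand, is Col19a1, which was higher. Col16a1, the third most abundant collagen, had 5.87, 5.98 and 6.23 FPKM in input, 6.65, 6.92 and 6.68 in IgG and 2.41, 2.10 and 2.76 in acRIP, and with 261 to 313 counts in each acRIP library its fall of −1.43 ± 0.10 over IgG (adjusted p = 1.5e-13) rests on more reads than that of any other lower member. Col12a1 was called lower than input alone (−1.92 ± 0.30). Col9a3 had 2.57, 2.80 and 2.49 FPKM in input, 3.49, 3.12 and 3.14 in IgG and 2.96, 2.91 and 3.33 in acRIP, so that IgG and acRIP overlapped (−0.03 ± 0.15) and input lay below both (0.31 ± 0.15 for acRIP over input, adjusted p = 0.059). It shares 234 exonic bases with Tcfl5, a gene on the opposite strand, and its counts are uncertain to that extent.

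The multiplexins Col15a1 and Col18a1 are basement membrane collagens with interrupted helices, and their values went different ways. Col15a1 had 5.29, 5.04 and 5.28 FPKM in input, 2.51, 2.67 and 2.57 in IgG and 4.78, 4.76 and 4.73 in acRIP. Its acRIP level was 1.91-fold that of IgG (0.93 ± 0.10, adjusted p = 2.0e-09), which is below the limit for a call, and differed from input by −0.05 ± 0.09 (adjusted p = 0.63), and IgG differed from input by −0.98 ± 0.10. Col26a1, a small collagen of testis and ovary, showed the same order, with 1.71, 1.77 and 1.77 FPKM in input, 0.802, 1.11 and 0.934 in IgG and 1.71, 1.54 and 1.82 in acRIP (0.88 ± 0.15 over IgG, 0.03 ± 0.14 over input), and leaving out IgG replicate 2 brought it past the limit over IgG. Col18a1, the source of endostatin, had 0.936, 0.834 and 1.02 FPKM in input, 0.681, 0.546 and 0.597 in IgG and 0.196, 0.245 and 0.153 in acRIP. It was lower in acRIP than in every control library (−1.56 ± 0.27 over IgG, adjusted p = 1.3e-05).

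Of the 3 tested transmembrane collagens, Col17a1 was called above IgG and Col25a1 below it (33.3% each, beside 11.5% and 20.9% of all tested genes). Col17a1, the hemidesmosomal collagen, had 0.223, 0.612 and 0.585 FPKM in input, 0.443, 0.372 and 0.322 in IgG and 0.799, 0.589 and 0.813 in acRIP. Its 2.01-fold difference from IgG (1.004 ± 0.33, adjusted p = 0.0081) only just passed the limit, and the call was lost without acRIP replicate 1, acRIP replicate 3, IgG replicate 2 or IgG replicate 3, at log2 values from 0.90 to 0.997. Col25a1, known from neurons, had 0.323, 0.328 and 0.249 FPKM in input, 0.398, 0.184 and 0.260 in IgG and 0.101, 0.107 and 0.0961 in acRIP (−1.40 ± 0.33, adjusted p = 0.00041), with acRIP below all controls.

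Outside these classes, 3 genes had from 0 to 4 counts in each acRIP library. Col8a1, a short chain of the sheets made by endothelial and smooth muscle cells, had 88, 62 and 80 counts in input, 80, 63 and 58 in IgG and 4, 4 and 2 in acRIP (−4.25 ± 0.45 over IgG, adjusted p = 2.0e-09). Col28a1, a chain with von Willebrand factor A domains, had 62, 50 and 54 counts in input, 38, 12 and 12 in IgG and 0 in each acRIP library, which is at least 7.11-fold lower than IgG by 3 counts a library and at least 3.55-fold by 6, or 3.54- and 1.77-fold without IgG replicate 1. Col7a1, the chain of anchoring fibrils in skin, had 42, 7 and 15 counts in input, 8, 23 and 33 in IgG and 2, 3 and 0 in acRIP (−3.49 ± 0.83, adjusted p = 0.00050), and became −4.11 without acRIP replicate 2. Between 81.9% and 84.3% of counts from 1 to 20 were even in each library over all genes, so both mates of a pair may have been counted, and fewer independent fragments than counts may stand behind these values.

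The collagens that were not tested were near the limit of detection. Col5a3, Col6a6, Col9a2, Col10a1 and Col13a1 had between 0 and 16 counts in each control library and 0 in every acRIP library, which makes 9 of the 44 genes with no acRIP count when Col4a6, Col5a2, Col24a1 and Col28a1 are added. Col13a1, a transmembrane collagen, had 8, 10 and 3 counts in input and 0 in every IgG library. Col8a2, the partner of Col8a1 in the membranes of the eye and vessels, had 12, 4 and 2 counts in input, 6, 8 and 0 in IgG and 2, 14 and 13 in acRIP, so that its groups overlapped.

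Count ratios were also taken between collagen chains of the same type, in pairs picked by their calls. To set the chains side by side within each library, the log2 ratio of their counts was taken after adding 0.5, for 9 pairs. The pairs were chosen after the values had been seen. In each, the first chain was called lower in acRIP than in IgG and the second was not called. A lower ratio in acRIP than in IgG was thus set by the choice, and the values are given without a test. Chains that were called lower together, such as Col4a4 with Col4a5 and Col6a2 with Col6a3, were not paired. Col4a2 over Col4a1 was 0.43, 0.09 and 0.02 in input, 0.42, 0.32 and 0.41 in IgG and −2.25, −1.73 and −2.09 in acRIP, a difference of −2.41 between the acRIP and IgG means. The acRIP libraries lay apart from all 6 controls, which were close to equal counts. Col6a3 over Col6a1 was −0.66, −0.94 and −1.52 in input, −0.63, −0.23 and 0.00 in IgG and −3.31, −4.28 and −4.60 in acRIP. Col9a1 over Col9a3 was −0.97, −1.06 and −0.78 in input, −1.81, −1.57 and −1.72 in IgG and −6.20, −6.39 and −8.75 in acRIP, the last of them with 0 counts of Col9a1. In these pairs too every acRIP library lay below every control library. Col1a1 over Col1a2 was already lower in IgG (mean −2.60 ± 0.11, SD, n = 3) than in input (−1.09 ± 0.08), and stood at −3.33, −9.34 and −6.50 in acRIP. Col4a4 over Col4a3 was 2.86 ± 0.16 in IgG, against 1.65 ± 0.12 in input and 1.42 ± 0.13 in acRIP, so that for this pair it was IgG that stood apart. The pairs Col5a2 with Col5a1 and Col11a2 with Col11a1 overlapped between acRIP and IgG.

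**Figure D3:**
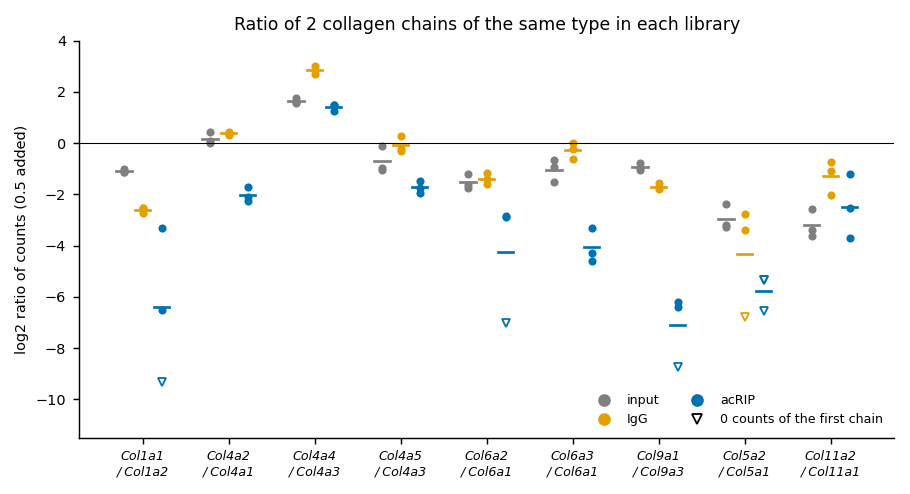
Log2 ratio of the counts of a collagen chain to a second chain of the same type in each library, with 0.5 added to each count, for input (grey), IgG (orange) and acRIP (blue). Points are libraries, lines are means of 3, and open triangles mark libraries with 0 counts of the first chain. The pairs were chosen so that the first chain was called lower in acRIP than in IgG and the second was not called. In the pairs with Col4a1, Col6a1 and Col9a3 all acRIP points lie below all control points.

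Gene length and cytosine content overlapped between the collagens that were lower in acRIP and the rest. The 17 lower than IgG had a median of 7621 exonic bases, the 17 not called 8526 and the 3 higher 6887, against 4151 over all tested protein-coding genes, and cytosines took a median of 25.8%, 24.7% and 28.6% of their exonic bases, against 24.1%. The ranges overlapped, with 20.6% to 29.996% in the lower genes, 21.0% to 29.3% in those not called and 21.9% to 28.7% in the higher ones. Across the 37 genes, Spearman's rho between the log2 fold change over IgG and cytosine content was 0.12, with exonic length 0.00 and with the share of glycine codons −0.08. With the mean FPKM in input it was 0.43 (Pearson's r of the log2 level 0.43), against a rho of 0.10 over the 15522 tested protein-coding genes. Fitted fold changes were used throughout, also for Col5a2, Col24a1 and Col28a1, which had 0 counts in acRIP and so no measured fold. The medians and correlations are descriptions over genes that share the same 9 libraries, and the low genes carry the widest errors. The 17 lower genes had a median of 0.454 FPKM in input and the 17 not called 1.29.

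**Figure D4:**
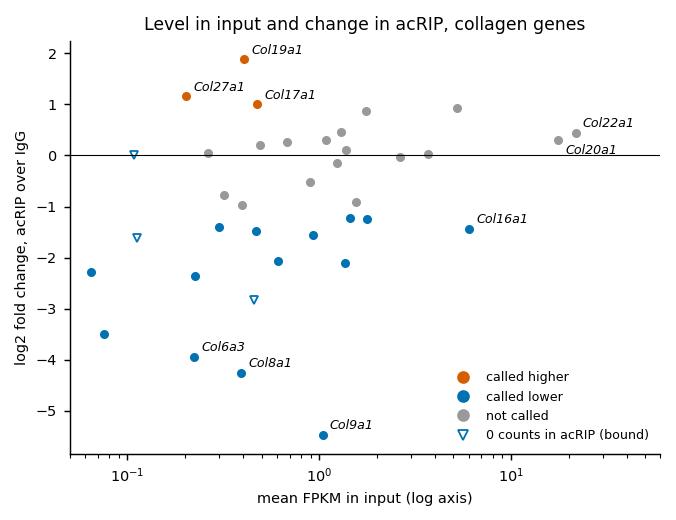
Log2 fold change in acRIP over IgG against the mean FPKM in input (log axis) for the 37 tested collagens. Orange genes were called higher, blue lower and grey neither. Open triangles are bounds for genes with 0 counts in acRIP, except that Col5a2, which has no bound over IgG, is drawn at 0. The lower genes lie mostly below 1 FPKM, with 5 of the 17 above it and Col16a1 the highest at 6.03, and the 3 higher genes lie below 0.5 FPKM.

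The enzymes that build collagen showed a mixed picture. Of 26 tested genes of collagen synthesis and processing (prolyl and lysyl hydroxylases, chaperones, propeptidases and lysyl oxidases), 9 (34.6%) were lower in acRIP than in IgG and 2 (7.69%) higher, beside 20.9% and 11.5% of all tested genes, at a median log2 fold change of −0.18. Bmp1, the protease that cuts the C-terminal propeptide, had 102, 51 and 52 counts in input, 26, 80 and 55 in IgG and 0 in each acRIP library, at least 16.5-fold lower than IgG by 3 counts a library and 8.25-fold by 6. P4ha3, a prolyl 4-hydroxylase subunit, P3h3, a prolyl 3-hydroxylase family member, and Loxl4, a lysyl oxidase, also had 0 counts in every acRIP library, at least 7.84-, 4.35- and 4.10-fold lower than IgG by 3 counts and 3.92-, 2.18- and 2.05-fold by 6. On the other side, Tll2, a protease of the family of Bmp1, was higher than IgG by 1.33 ± 0.38 (adjusted p = 0.0030) and than input by 1.17 ± 0.37, and P3h4 was higher than IgG alone, by 1.04 ± 0.22. All 4 lower genes named here were called against input as well, but for 2 of them on few counts. By 3 counts the bounds against input were 14.2-fold for Bmp1, 6.28 for P4ha3, 2.31 for Loxl4 and 1.18 for P3h3. By 6 counts they were 7.11, 3.14 and 1.15, and the P3h3 input level was under the bound. The 3-count bound of P3h3 was lost without input replicate 1, and the 6-count bound of Loxl4 without input replicate 3.

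Collagen receptors and the other basement membrane proteins held both directions. Of 7 tested receptors, 3 were higher in acRIP than in IgG and 1 lower, at a median of 0.28. Itga11, an integrin chain that binds fibrillar collagen, had 0.560, 0.779 and 0.509 FPKM in input, 0.439, 0.654 and 0.283 in IgG and 1.78, 1.35 and 2.23 in acRIP (2.00 ± 0.27 over IgG, adjusted p = 2.3e-07). Itga2 and the discoidin receptor Ddr1 were higher than IgG alone, by 1.88 ± 0.22 and 1.20 ± 0.18, and Lair1, an inhibitory receptor of immune cells, had 0 counts in acRIP and was at least 4.34-fold lower than IgG by 3 counts and 2.17-fold by 6. Of 15 basement membrane proteins, 4 were higher in acRIP than in IgG and 2 lower, at a median of 0.24. Only 2 of the 4 higher ones were also called higher than input, while the 2 lower ones were also called lower than input. The proteoglycan Hspg2 (perlecan) was higher than IgG by 1.37 ± 0.22 (adjusted p = 2.1e-06), and the laminin chains Lama5 and Lama4 by 2.09 ± 0.43 and 1.09 ± 0.27. Lamb3, a laminin chain of epithelial basement membranes, had 104, 130 and 134 counts in IgG and 0 in every acRIP library, at least 38.9-fold lower by 3 counts and 19.5-fold by 6, and the linker Nid2 was at least 19.1- and 9.54-fold lower. The 3 higher receptors were 42.9% of 7 and the 4 higher basement membrane proteins 26.7% of 15, beside 11.5% of all tested genes, and the 1 and 2 lower ones were 14.3% and 13.3%, beside 20.9%.

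Of 8 tested matrix metalloproteases and inhibitors, 1 (12.5%) was higher in acRIP than in IgG and 3 (37.5%) lower, beside 11.5% and 20.9% of all tested genes, at a median of −0.07. Mmp8, a collagenase of neutrophils, had 2, 7 and 3 counts in input, 0 in every IgG library and 44, 40 and 24 in acRIP, at least 12.5-fold higher than IgG by 3 counts and 6.23-fold by 6. Mmp2, a gelatinase, had 0 counts in acRIP and was at least 10.4- and 5.18-fold lower than IgG, the inhibitor Timp3 was lower by −4.74 ± 0.33 (adjusted p = 3.8e-13), and the membrane protease Mmp14 was lower than IgG (−1.55 ± 0.22) but not than input. Against input, 17.7% of all tested genes were higher and 22.9% lower. Of the 26 genes of synthesis and processing 3 were higher and 11 lower (11.5% and 42.3%), and of the 7 receptors 1 and 1 (14.3% each). Of the 15 basement membrane proteins 4 were higher and 3 lower (26.7% and 20%), and of the 8 metalloproteases and inhibitors 2 and 2 (25.0% each).

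**Figure D5:**
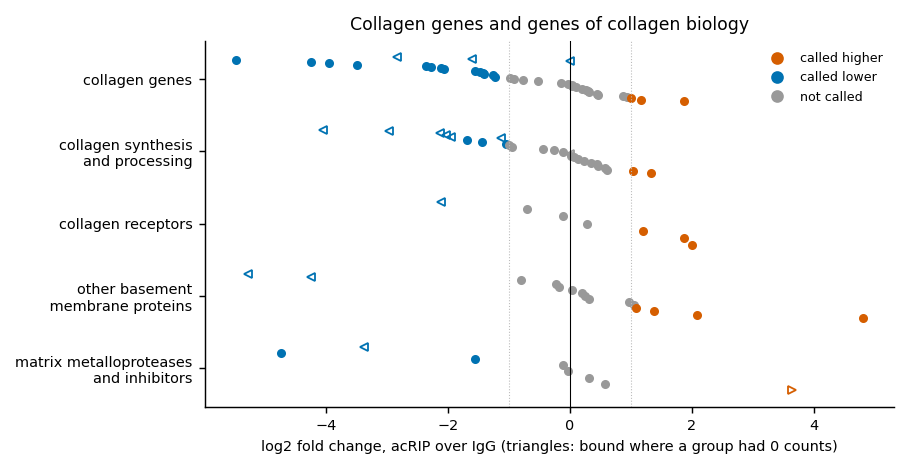
Log2 fold change in acRIP over IgG of the tested collagen genes and of the tested genes of 4 lists of collagen biology, 1 point a gene, in order of the fitted value. Orange was called higher, blue lower and grey neither. Triangles are bounds against 3 counts a library where a group had 0 counts, and genes without a bound, such as Col5a2, are drawn at 0. The collagen and synthesis lists have more blue than orange points, and the receptor and basement membrane lists more orange than blue.

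Markers of testis cell types held calls in either direction, and the lists are short. Of all tested genes 20.9% were lower in acRIP than in IgG and 11.5% higher. Of 3 fibroblast markers, Lum and Pdgfra were lower in acRIP than in both controls (−3.04 ± 0.49 and −1.98 ± 0.34 over IgG) and Dcn was not called (−0.25 ± 0.07), and the summed level of the 3 was 58.8 to 60.8 CPM in input, 62.0 to 68.9 in IgG and 50.0 to 53.9 in acRIP. Of 5 peritubular myoid markers 1 (Tagln, 4.08 ± 0.63 over IgG) was higher and none lower, and their sum was 41.8 to 43.7, 55.9 to 61.7 and 63.6 to 67.7. Of 3 macrophage markers 2 were lower, with a sum of 11.7 to 13.1 in input, 10.8 to 14.9 in IgG and 1.12 to 2.704 in acRIP, and Cd68 had 0 counts in 2 of the 3 acRIP libraries. Of 4 endothelial markers Cdh5 was higher (3.77 ± 0.38) and Pecam1 lower (−1.45 ± 0.46), and none of 5 Leydig, 4 Sertoli or 7 germ cell markers that were tested was called against IgG. Of the erythrocyte genes other than globins, 1 of 2 tested was lower than IgG. The Sertoli marker Rhox5 and the erythrocyte gene Epb42 had 0 counts in all 9 libraries. The part of cell make-up in the collagen values was not tested.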

How the data were processed

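Testis acRIP-seq comprised 9 libraries in 3 groups of 3 (input, IgG, acRIP), grouped and numbered from the sample labels. The authors deposited raw counts of reads on genes, made per the methods with Trim Galore 0.6.7, STAR 2.7.10a on mm10 and featureCounts 2.0.2. Annotation release, strand setting and whether mates were counted singly are not given in the sources used here. The table also gives gene lengths. Of 55401 genes, 55141 were named through GENCODE vM21, matched without version, among them all 44 collagens.

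The test was that of edgeR 4.0.16 in R 4.3.3, with filterByExpr (about 10 counts in the median library, in 3 libraries), TMM factors and the quasi-likelihood test with 1 mean a group over all 9 libraries. A call needed a Benjamini-Hochberg adjusted p under 0.05 over all tested genes and a fold over 2. The SE was derived from the fold change and the F value. FPKM was computed from counts without TMM factors. Summed CPM of markers and of collagens are TMM-scaled. Where a group had 0 counts in every library, a bound against 3 counts a library is given, and against 6 in case both mates were counted. Such bounds cover counting error only.

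Alternatives were DESeq2 1.42.0, other normalizations and filters, fits of 6 libraries, a test against a 2-fold change, halved counts, limma 3.58.1 on log2(FPKM + 1) and log2(FPKM + 0.1), a replicate block, and fits that left out 1 library each. The fits were tested on simulated data. Values in every library are given for the 10 collagens with the highest mean FPKM and for each one called against IgG. From the other lists up to 4 genes were named in each direction, and 1 gene that this rule names is not reported here. The members, lists and rules were chosen with earlier results of these data known, and the chain ratios, bounded medians and bounds with a library left out were added after the values had been seen. Unused per-sample columns numbered 0.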

Additional observations from a re-analysis of the deposited data

How the results depend on the processing

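Counts of collagens called were within 1.5 times the values given under most alternatives. With limma on log2(FPKM + 1), which compresses levels below 1 FPKM, the counts higher and lower became 0 and 2 for acRIP against IgG, 0 and 2 against input, 0 and 1 against both and 0 and 0 for IgG against input. Under the test against a 2-fold change 1 gene was higher against IgG, 1 against input and 0 against both, and 0 were lower in IgG than in input. The number lower in IgG than in input was 5 with upper quartile normalization, 5 with every gene of at least 1 count and 1 with log2(FPKM + 0.1). With each library left out in turn, 2 to 3 genes were higher and 16 to 18 lower against IgG, 2 to 3 and 18 to 19 against input, 2 and 14 to 16 against both, and 1 and 2 to 4 in IgG against input.

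Same-numbered libraries did not deviate together (correlations −0.01 to 0.04), so the numbers were not taken as pairs. With the replicate block 3 genes were higher and 18 lower against IgG, 2 and 19 against input, 2 and 16 against both and 1 and 3 in IgG against input.

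Changes of sign were followed only for the collagens whose values are given in every library. Among these, signs changed in the values of 3 genes, all near 0 and not called. The other tested collagens were not checked for sign. Col6a4 over IgG became −0.012 and −0.016 with limma on FPKM + 1 and + 0.1 and ranged from −0.044 to 0.14 with 1 library left out, turning without acRIP replicate 1, IgG replicate 1 or IgG replicate 3, and its ratio of mean levels was 0.033 in CPM. Col9a3 over IgG became 0.015 with upper quartile normalization and ranged from −0.083 to 0.012, turning without acRIP replicate 2 or IgG replicate 1. Col26a1 over input became −0.018 with upper quartile normalization, −0.030 and −0.045 with limma on FPKM + 1 and + 0.1, and ranged from −0.010 to 0.098, turning without acRIP replicate 3. The cause was not tested. Low counts limit how well sizes are known, as 10 of the 17 lower collagens had acRIP libraries under the filter.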
